A study of Rattus norvegicus with 20 samples.

Results

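The renin-angiotensin-aldosterone genes described here are angiotensinogen (Agt), angiotensin-converting enzyme (Ace), the angiotensin type 1 receptors (Agtr1a and Agtr1b), aminopeptidase A (Enpep), neprilysin (Mme), the mineralocorticoid receptor (Nr3c2) and the dehydrogenase that guards it (Hsd11b2). The rule that picks their rows uses gene names and no measured value, though the genes themselves were proposed with earlier results of these data known. A row was taken where its gene name in either deposited table was one of the 8, and it was carried to the other table by its identifier. This gave 9 identifiers of the 32907 listed in the series, 8 of them in the cyclosporine A table and all 9 in the tacrolimus table, because 2 identifiers carry the name Ace. Bulk RNA sequencing was done on kidneys of adult (10 to 12 weeks) male wild-type Wistar rats after 28 days of treatment through osmotic minipumps placed under the skin. The groups were cyclosporine A (n = 4, target trough 3 mg/ml as the series text writes it), its saline vehicle (n = 4), tacrolimus (n = 6, target trough 3.5 ng/ml) and its vehicle of 25% DMSO and 75% PEG500 (n = 6, DMSO/PEG below). Cyclosporine A and tacrolimus are calcineurin inhibitors, immunosuppressants used after organ transplantation whose known unwanted effects include hypertension and kidney injury. RNA came from kidney tissue with its mixed cells, so fewer cells of a type and less RNA per cell cannot be told apart. Each drug comes with a vehicle and a table of its own. The contributions of these 3 to any contrast of the drugs cannot be told apart.

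In this system angiotensinogen is cut to angiotensin I, and angiotensin-converting enzyme turns this into angiotensin II. Angiotensin II raises vascular tone and tubular sodium uptake through the type 1 receptors, of which rats have a pair, and it is broken down by aminopeptidase A, while neprilysin leads to shorter peptides with other actions. Angiotensin II also drives aldosterone release from the adrenal cortex. Aldosterone acts in the distal nephron through the mineralocorticoid receptor, which Hsd11b2 shields from corticosterone by inactivating it.

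Values are FPKM, fragments scaled to gene length and to library size. The libraries of the cyclosporine A table held 30468775 to 34308899 fragments assigned to genes, but the share from mitochondrial genes was 49.7 to 68.6% with saline and 80.2 to 90.8% with cyclosporine A, without overlap (exact 2-sided permutation test, p = 0.0286, the smallest that 4 against 4 allows). Fragments from nuclear genes therefore numbered 10283979 to 17256748 with saline and 2905839 to 6549282 with cyclosporine A. Since the deposited values of that table are relative to all fragments, they were divided by median-of-ratios size factors of the nuclear genes, and these values are called rescaled FPKM. In the tacrolimus table the libraries held 31670202 to 39358485 fragments with a mitochondrial share of 10.5 to 15.9%, and the deposited values were used. Summed markers of the proximal tubule ran from 1436 to 1880 rescaled FPKM with saline and from 682 to 1492 with cyclosporine A (exact permutation p = 0.0571). The abundant Slc7a13, at 420 to 1233, makes up much of that sum, and of the 11 markers 1 was called higher, none lower, 2 lay higher and 4 lower without overlap. Of all tested genes 0.327% were called higher, 0.282% called lower, 4.85% lay higher and 6.06% lower without overlap, which are the shares to set beside each marker count here. Sums of thick ascending limb markers (1 of 4 called lower, 3 apart) and of distal convoluted tubule markers were lower with cyclosporine A without overlap. Of the 5 distal convoluted tubule markers tested, 1 was called lower and 1 lay apart, with a median change of −0.06, and Calb1, at 9.55 to 69.6, carries much of that sum. Urothelium markers summed to 1.63 to 4.19 rescaled FPKM with saline and 7.29 to 17.8 with cyclosporine A (exact permutation p = 0.0286, 1 of 4 tested called higher). Defining markers of the adrenal cortex were near 0 in both tables, with sums of at most 2.17 FPKM, and aldosterone synthase (Cyp11b2) was at 0 in all 8 libraries of the cyclosporine A table and at most 0.0146 FPKM in the tacrolimus table. The tubule markers Slc34a1 and Umod and the collecting duct marker Aqp2 were above 0 in every library. In the cyclosporine A table the proximal tubule marker Slc5a2 (0.110 to 1.86 rescaled FPKM) and the podocyte marker Nphs1 (0.137 to 0.888) were low. They were 130 to 163 and 10.3 to 14.9 FPKM in the tacrolimus table. The proximal tubule marker Slc22a7 was 1.70 to 5.57 and 2.21 to 6.14. The tables were scaled separately, and a difference in the tissue sampled was not tested.

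None of the 8 genes passed the test with either drug. Changes are differences of log2(FPKM + 1), tested with limma over all genes of a table, and a gene was called at a Benjamini-Hochberg adjusted p under 0.05. For cyclosporine A against saline, 0 of 8 tested identifiers were called on rescaled FPKM, where 0.609% of all 13455 tested genes were. An unadjusted p under 0.05 was reached by 4 of the 8 (16.2% of all genes), a count from which nothing is read because Agtr1b, 1 of the 4, passed the filter only through its saline libraries. Of the 8, 2 had changes above 0 (50.1% of all genes), 1, Agtr1b, had groups that did not overlap (10.9% of all genes, a share from which nothing is read for the same reason), and voom on the recovered fragments also called 0 of 8. For tacrolimus against DMSO/PEG, 0 of 8 were called with 0.303% of 15493 genes called, 1 had an unadjusted p under 0.05 (8.58% of all genes), 6 had changes above 0 (49.8% of all genes), and voom called 0 of 8. Calls for a higher level were made in 0.0194% of all genes, and 0 of the 8 had groups that did not overlap (0.975% in either direction, 0.671% lower). The median change of the 8 was −0.27 with cyclosporine A, beside 5.4e-04 for all genes, and 0.08 with tacrolimus, beside −3.3e-04 for all genes. The cyclosporine A median rests in part on Agtr1b, which passed the filter only through its saline libraries, so nothing is read from it. The tacrolimus median rests on DMSO/PEG replicate 3, without which it was −0.00883, and it was 0.0165 with array quality weights and −0.0187 without DMSO/PEG replicate 3 and tacrolimus replicate 6.

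On the FPKM as deposited the picture with cyclosporine A was another one. All 8 identifiers were called lower, as were 80.9% of all tested genes (81.1% in either direction), and all 8 had drug libraries below every saline library, as had 67.9% of all tested genes (68% in either direction). All 8 had an unadjusted p under 0.05, as had 82.6% of all genes, and none had a change above 0, as had 2.46%. Their median change was −1.20, beside −0.89 for all genes. Agtr1b, which passed the filter only through its saline libraries, is among the 8 here too, so nothing is read from these counts or this median. Adjusted p-values from limma ran from 7.18e-04 for the row named Ace to 0.0353 for Nr3c2. With the scale common to all nuclear genes taken out, 6 of the 8 changes stayed below 0 and those of Nr3c2 and Hsd11b2 were above 0.

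**Figure D1:**
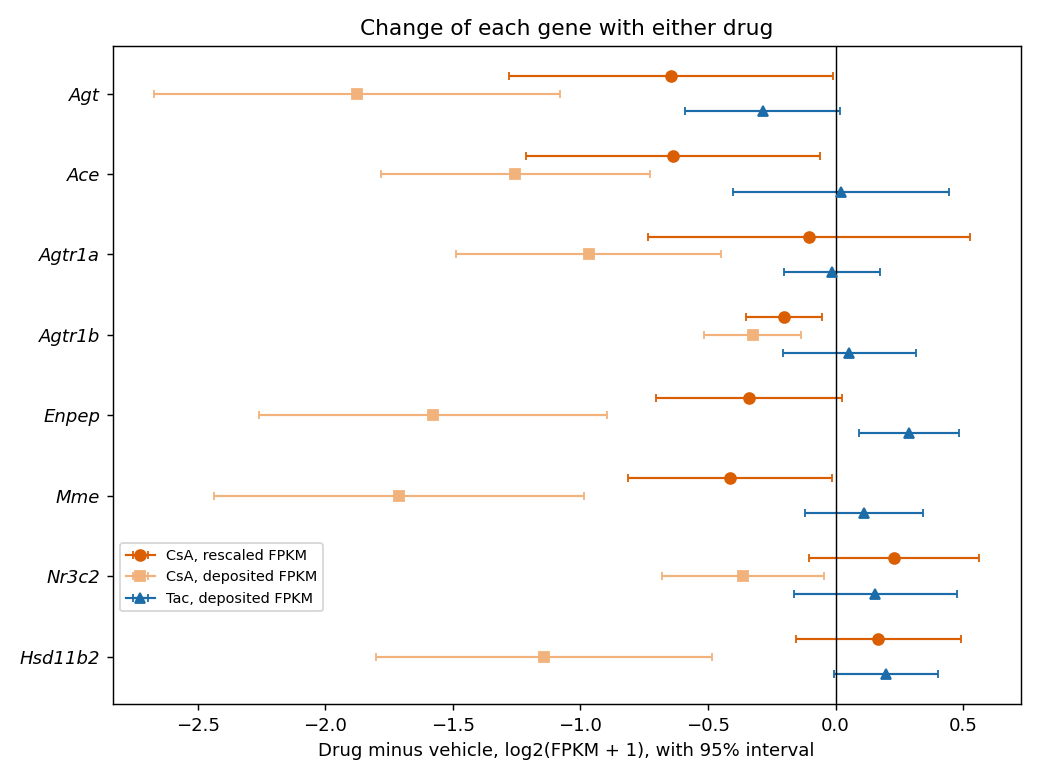
Change of each gene on the horizontal axis as drug minus vehicle in log2(FPKM + 1), with points for the limma estimate and bars for its 95% interval. Circles are cyclosporine A on rescaled FPKM, squares cyclosporine A on deposited FPKM and triangles tacrolimus. The squares of the 8 genes lie from −1.88 (Agt) to −0.32 (Agtr1b), and the circles lie closer to 0 for each of them. The Ace row differs between the tables as the text describes.

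The order of levels was much alike in the groups of a table. In the tacrolimus table, per gene length, Hsd11b2 was highest (139 ± 20.4 FPKM with DMSO/PEG, SD, n = 6), followed by Mme (109 ± 15.8), Enpep (80.4 ± 6.65), Agt (36.4 ± 8.31), Agtr1a (27.02 ± 2.87), Nr3c2 (5.04 ± 1.34), Ace (3.29 ± 1.22) and Agtr1b (1.77 ± 0.479). With DMSO/PEG the libraries of neighbours in this order overlapped for Hsd11b2 and Mme, Mme and Enpep, Agt and Agtr1a, Nr3c2 and Ace, and Ace and Agtr1b. They did not overlap between Enpep and Agt or between Agtr1a and Nr3c2. In the cyclosporine A table Hsd11b2 (54.8 ± 5.86 rescaled FPKM with saline, SD, n = 4) and Mme (47.9 ± 11.2) were again highest, Agt (21.98 ± 6.51) and Enpep (17.7 ± 2.03) overlapped, and Agtr1a (1.81 ± 0.359) stood far lower. The tables were scaled separately, so a level in one cannot be set against a level in the other. Within the tables, Agtr1a was 0.267 to 0.415 of Enpep in the DMSO/PEG libraries and 0.0723 to 0.124 of Enpep in the saline libraries, a ratio of FPKM that no scaling of a library changes. The tables also differ in vehicle and in the levels of tissue markers given above. The parts of these in the ratio cannot be told apart.

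**Figure D2:**
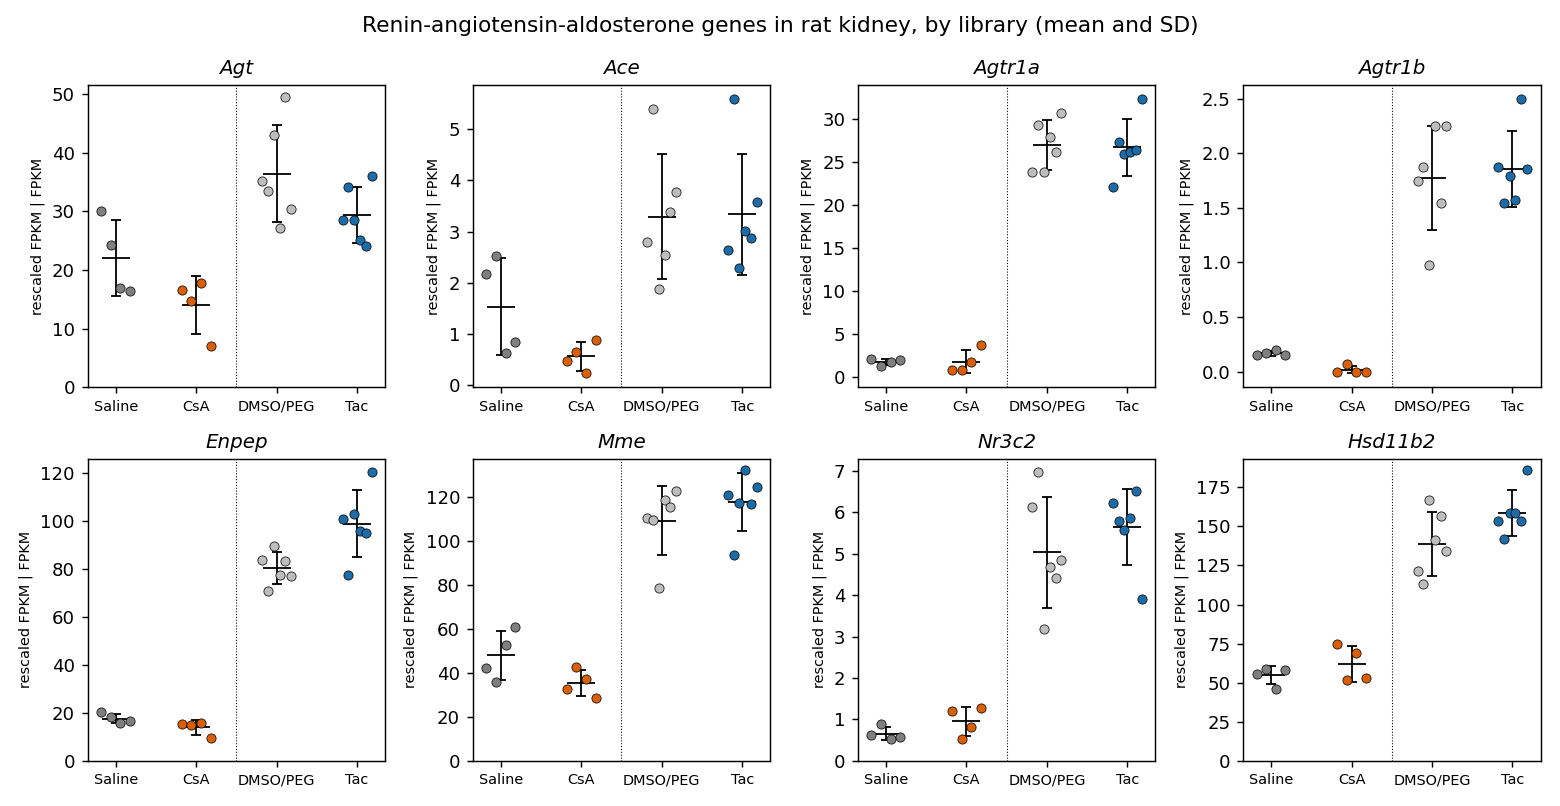
FPKM of the 8 genes, 1 point per library, with the mean and SD of each group as horizontal and vertical lines. The vertical axis is rescaled FPKM left of the dotted line (saline and cyclosporine A, n = 4 each) and deposited FPKM right of it (DMSO/PEG and tacrolimus, n = 6 each), and heights are comparable only on the same side. Agtr1b is the gene whose groups on the left do not overlap, and no gene has groups apart on the right.

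Agt encodes angiotensinogen, the single precursor of all angiotensin peptides, which in the kidney is made in the proximal tubule. The gene lies on chromosome 19 from 57321640 to 57333433 on the minus strand (identifier ENSRNOG00000018445; positions of genes are those of the tables, built on rn6 per the submitters' processing notes). Rescaled values were 30.1, 24.3, 17.0 and 16.5 FPKM in the saline libraries and 16.6, 14.7, 17.8 and 6.96 in the cyclosporine A libraries. Both saline values at the top lay above all drug values, and both at the bottom lay among them. The change was −0.65 (SE 0.28, limma adjusted p = 0.302). With DMSO/PEG the values were 35.1, 33.5, 43.0, 27.2, 49.4 and 30.4 FPKM, and with tacrolimus 28.6, 34.1, 28.5, 25.2, 24.1 and 35.99. The groups overlapped, with a change of −0.29 (SE 0.14, limma adjusted p = 0.619). Summed adipocyte markers were 89.6 to 286 FPKM with DMSO/PEG and 50.5 to 157 with tacrolimus (exact 2-sided permutation p = 0.0130, 0.0974 adjusted over the 15 library measures of that table, 1 of 7 markers called lower), and their part in this or the other tacrolimus changes was not tested. Cyclosporine A replicate 4, the lowest for Agt, was also the library with the highest mitochondrial share (90.8%) and the fewest nuclear fragments (2905839), and without it the change was −0.36. The summed proximal tubule markers moved the same way as Agt in that table, and their part in the result was not tested.

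Ace is the peptidase that makes angiotensin II and destroys bradykinin. The tables do not hold the same Ace row. In the tacrolimus table Ace is ENSRNOG00000062101 (chromosome 10, 94170766 to 94187822, plus strand), and that identifier is not among the rows of the cyclosporine A table. The row named Ace in the cyclosporine A table is ENSRNOG00000007467, listed from 94170789 to 94206535, a span that covers the Ace model and the neighbouring model which the tacrolimus table names Ace3 (94192556 to 94206535). The fragments of that row come out whole with a length of 3350 bases and not with the 6339 bases listed, so its level per length rests on a gene model that is not the printed one. In the tacrolimus table the row named Ace3 had 0 to 4 fragments per library and was not tested, while Ace had 254 to 831.

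The row named Ace in the cyclosporine A table had 2.16, 2.52, 0.630 and 0.837 rescaled FPKM with saline and 0.476, 0.653, 0.231 and 0.892 with cyclosporine A. Saline replicates 1 and 2 stood above all drug libraries and saline replicates 3 and 4 among them. The change was −0.64 (SE 0.26, limma adjusted p = 0.263), and it was −1.21 with a pseudocount of 0.1 (limma adjusted p = 0.268) and −1.46 with voom (adjusted p = 0.352). With tacrolimus Ace was 2.65, 5.60, 2.29, 3.02, 2.88 and 3.59 FPKM, and with DMSO/PEG 2.80, 5.39, 1.87, 2.54, 3.38 and 3.78. Both groups had a single library above 5 FPKM, replicate 2 of each, and the change was 0.02 (SE 0.20, 95% interval −0.40 to 0.44, limma adjusted p = 0.988).

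Agtr1a and Agtr1b encode the rat's type 1 receptors, products of a duplicated gene with nearly the same protein sequence. Agtr1a (ENSRNOG00000018346) lies on chromosome 17 from 35907108 to 35958077 and Agtr1b (ENSRNOG00000010640) on chromosome 2 from 105149020 to 105224295, both on the minus strand. The authors' counting of fragments that match both is not given in the sources used here, so the split between them is uncertain. The 250 bases before their starts are shown because the paralogs have different neighbourhoods and very different levels. The sequences are from RefSeq on the GRCr8 assembly (Agtr1a chr17:34435433-34435682 and Agtr1b chr2:104849263-104849512, both minus strand) and are written 5′ to 3′ up to the base before the start.
Agtr1a: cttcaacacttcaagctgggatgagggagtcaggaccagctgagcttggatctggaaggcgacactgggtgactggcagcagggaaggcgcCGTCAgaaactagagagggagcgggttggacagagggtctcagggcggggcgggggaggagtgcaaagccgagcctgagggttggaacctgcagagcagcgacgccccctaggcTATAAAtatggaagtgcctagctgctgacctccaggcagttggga
Agtr1b: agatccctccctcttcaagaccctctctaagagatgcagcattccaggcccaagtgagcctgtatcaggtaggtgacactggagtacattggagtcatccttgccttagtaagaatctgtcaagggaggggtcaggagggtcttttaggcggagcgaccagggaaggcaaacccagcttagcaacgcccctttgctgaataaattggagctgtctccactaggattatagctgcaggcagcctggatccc

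Capitals mark the motif letters found in these windows. The search covered TATAAA on the gene's strand, and TGACG (the core of the cyclic AMP response element), GGAAAA (the core bound by NFAT, the factor that calcineurin activates) and TGTTCT (a half-site of the corticosteroid receptors) on both strands. In Agtr1a, TATAAA began 45 bases before the start and TGACG was found on the opposite strand 159 bases before it. None of these letters was found in the Agtr1b window. Over the 33469 promoter windows of the same length, TATAAA was present in 8.06% and TGACG in 18.2%. RefSeq windows were found for 5 of the 8 genes.

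Agtr1a had 2.10, 1.31, 1.79 and 2.04 rescaled FPKM with saline, from 117 to 313 fragments, and 0.876, 0.833, 1.79 and 3.73 with cyclosporine A, from 36 to 109 fragments. The drug libraries lay on both sides of the saline libraries, and their means were the same (1.81 ± 0.359 and 1.81 ± 1.36, SD, n = 4 each). The change of −0.10 (SE 0.28, 95% interval −0.74 to 0.53, limma adjusted p = 0.898) became −0.39 without cyclosporine A replicate 4, 0.05 without replicate 1 and 0.06 without replicate 2 of that group. It was −0.23 with a pseudocount of 0.1 and −0.45 with voom, neither called. With tacrolimus Agtr1a was 22.1 to 32.4 FPKM with a median of 26.4, and with DMSO/PEG 23.8 to 30.8 with a median of 27.1. The change was −0.01 (SE 0.09), and its 95% interval of −0.20 to 0.17 is narrow beside that of the other drug.

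Agtr1b was the least abundant of the 8 genes tested. It passed the filter on low values only through the saline libraries, where it is high, so the separation of its groups with cyclosporine A is partly set by that filter and is given as a description. Its fragments numbered 23, 15, 21 and 17 with saline and 0, 4, 0 and 0 with cyclosporine A. In rescaled FPKM these are 0.169 ± 0.0230 (SD, n = 4) and 0.0170 ± 0.0340, with every drug library below every saline library (6.06% of all tested genes lay so, and nothing is read from this share). On the log2(FPKM + 1) scale, which understates changes of low genes, the change was −0.20 (SE 0.07) and did not pass (limma adjusted p = 0.183). With a pseudocount of 0.1 it was −1.23 (limma adjusted p = 0.127) and with voom on the recovered fragments −3.09 (adjusted p = 0.159), and with 3 drug libraries at 0 these sizes depend on the value added to each count. With tacrolimus Agtr1b was 1.87, 1.55, 1.80, 1.57, 2.50 and 1.86 FPKM, and with DMSO/PEG 1.75, 1.87, 0.979, 2.25, 1.55 and 2.25, each from 77 to 186 fragments. Tacrolimus replicate 5 lay above every vehicle library and DMSO/PEG replicate 3 below every tacrolimus library, with the others overlapping. The change was 0.05 (SE 0.12, limma adjusted p = 0.949).

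Enpep and Mme encode peptidases of the proximal tubule brush border. Enpep, aminopeptidase A, removes the first residue of angiotensin II (ENSRNOG00000051854, chromosome 2, 233667254 to 233743866, minus strand). Its promoter window is shown because it holds, on its own strand 175 bases before the start, the capitalized NFAT core GGAAAA, a match that 21.6% of all windows have and that is no evidence of binding (RefSeq on GRCr8, chr2:220526219-220526468, minus strand).
Enpep: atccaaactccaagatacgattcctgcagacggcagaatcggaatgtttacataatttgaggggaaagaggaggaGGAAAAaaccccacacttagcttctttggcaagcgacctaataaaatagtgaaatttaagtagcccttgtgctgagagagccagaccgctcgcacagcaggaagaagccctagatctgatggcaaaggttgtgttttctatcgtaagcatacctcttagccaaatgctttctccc

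With cyclosporine A Enpep was 15.5, 14.9, 15.9 and 9.497 rescaled FPKM, and with saline 20.3, 18.1, 15.8 and 16.4. Of the drug libraries, 1 exceeded the lowest saline library and replicate 4 stood far below the others. The change was −0.34 (SE 0.16, limma adjusted p = 0.345), and −0.18 without that replicate. With tacrolimus the values ran the other way, at 101, 77.3, 103, 96.0, 94.97 and 120 FPKM against 83.9, 70.6, 89.6, 77.6, 83.5 and 76.9 with DMSO/PEG. Of the 6 tacrolimus libraries, all but replicate 2 lay above every vehicle library. This change of 0.29 (SE 0.09) was the one with an unadjusted p under 0.05 in that table, and it did not pass after adjustment (limma adjusted p = 0.314). Across the 8 libraries of the cyclosporine A table, after removal of group means, Enpep and Agt varied together with r = 0.98, and cyclosporine A replicate 4 was the lowest library for both. Over the 12 libraries of the tacrolimus table the same pair had r = 0.31. Each r is a description of points that share library and scaling.

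Mme encodes neprilysin, which cleaves angiotensin I, bradykinin and natriuretic peptides (ENSRNOG00000009514, chromosome 2, 153803349 to 153880738, plus strand). With saline it was 42.0, 35.8, 52.7 and 60.9 rescaled FPKM, and with cyclosporine A 32.9, 42.8, 37.3 and 28.6. Of the 4 drug libraries, 2 lay below every saline library and the others among them, and the change was −0.41 (SE 0.18, limma adjusted p = 0.292). Its fragments in that table come out whole with 2613 bases, not the 3169 bases listed, so its level per length there is uncertain. With DMSO/PEG Mme was 110, 109, 78.6, 118, 115 and 123 FPKM, and with tacrolimus 121, 93.5, 117, 132, 117 and 125. DMSO/PEG replicate 3 lay far below the other vehicle libraries. The change was 0.11 (SE 0.11, limma adjusted p = 0.860), 0.02 without that library and 0.18 without tacrolimus replicate 2. A small U6 RNA gene is annotated on the other strand within Mme, and the strand setting of the counting is not given in the sources used here.

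Nr3c2 encodes the mineralocorticoid receptor, the transcription factor through which aldosterone acts (ENSRNOG00000034007, chromosome 19, 34448289 to 34752695, minus strand). Rescaled values were 0.629, 0.892, 0.516 and 0.588 FPKM with saline and 1.21, 0.536, 0.816 and 1.28 with cyclosporine A, from 38 to 113 fragments per library. Cyclosporine A replicates 1 and 4 lay above every saline library and the others among them. The change was 0.23 (SE 0.15, limma adjusted p = 0.486), and 0.15 without cyclosporine A replicate 4, 0.44 with a pseudocount of 0.1 and 0.40 with voom, none of them called, while on deposited FPKM it was −0.36 (limma adjusted p = 0.0353). With DMSO/PEG Nr3c2 was 6.14, 6.97, 3.18, 4.68, 4.41 and 4.85 FPKM, and with tacrolimus 6.23, 5.80, 5.57, 5.87, 6.52 and 3.91. The tacrolimus values were close together but for replicate 6, and the change was 0.16 (SE 0.15, limma adjusted p = 0.857). It was 0.06 without DMSO/PEG replicate 3, 0.24 without DMSO/PEG replicate 2 and 0.24 without tacrolimus replicate 6.

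Hsd11b2 encodes the dehydrogenase that turns corticosterone into an inactive form in aldosterone target cells (ENSRNOG00000017084, chromosome 19, plus strand, listed from 37476083 to 37481326 for the cyclosporine A libraries and from 37476095 to 37481307 for the tacrolimus libraries). It had 55.6, 59.1, 46.2 and 58.1 rescaled FPKM with saline and 74.8, 51.4, 69.2 and 53.2 with cyclosporine A. Drug replicates 1 and 3 exceeded all saline libraries, and the change was 0.17 (SE 0.14, limma adjusted p = 0.615). It was 0.07 without cyclosporine A replicate 1, 0.11 without cyclosporine A replicate 3 and 0.09 without saline replicate 3. On deposited FPKM the sign was the opposite, at −1.14 (limma adjusted p = 0.00341). With DMSO/PEG it was 121, 113, 167, 141, 156 and 134 FPKM, and with tacrolimus 153, 142, 158, 158, 153 and 186. The tacrolimus libraries lay in the upper part of the vehicle range and 1 above it, with a change of 0.20 (SE 0.09, limma adjusted p = 0.606).

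Nr3c2 and Hsd11b2, which act in the same cells, varied in opposite directions among the DMSO/PEG libraries and in tacrolimus replicate 6, while the other 5 tacrolimus libraries showed no such order. After removal of group means r was −0.93 over 12 libraries, a description of points that share library and scaling. Hsd11b2 was 16.2 to 35.4 times Nr3c2 in 5 of the 6 DMSO/PEG libraries and 52.4 times in replicate 3, and 23.5 to 28.4 times in 5 of the 6 tacrolimus libraries and 47.6 times in replicate 6. These ratios do not depend on the scaling of a library. In the cyclosporine A table the same pair had r = 0.43 over 8 libraries. Tacrolimus replicate 6 also had the highest mitochondrial share of its table (15.9%) and the fewest genes detected (17880), and their part in its values was not tested.

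**Figure D3:**
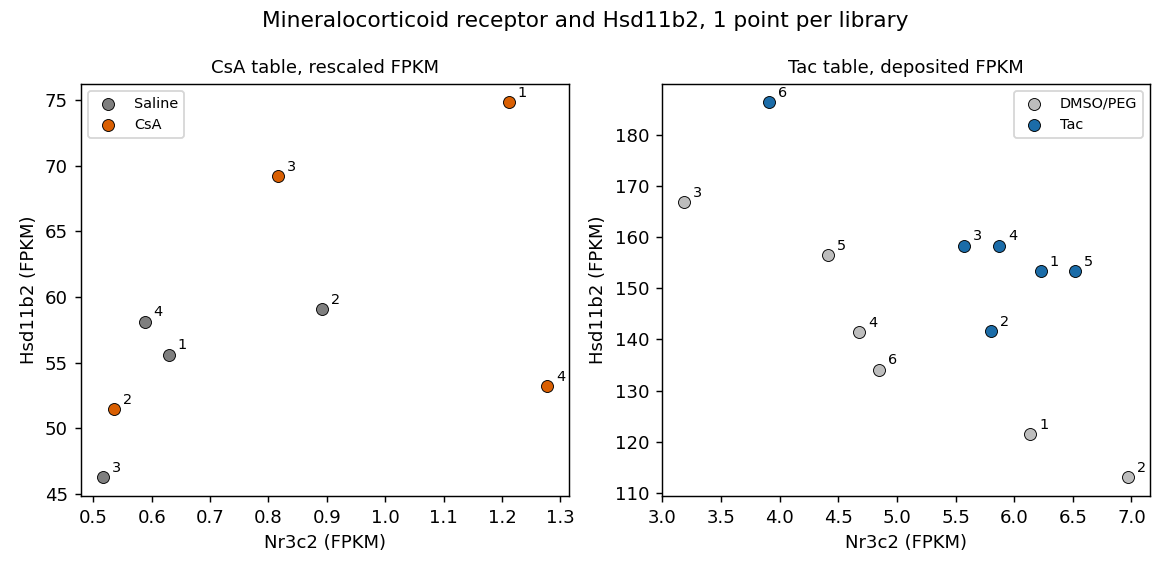
Hsd11b2 on the vertical axis against Nr3c2 on the horizontal axis, both in FPKM, 1 point per library with its replicate number. The left panel is the cyclosporine A table (rescaled) and the right panel the tacrolimus table (deposited), and neither set of axes starts at 0. On the right, DMSO/PEG replicate 3 (3.18 and 167 FPKM) and tacrolimus replicate 6 (3.91 and 186 FPKM) sit at the upper left. The DMSO/PEG libraries with less Nr3c2 have more Hsd11b2, and among the tacrolimus libraries replicate 6 alone stands out in that direction.

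The difference between the drugs in their changes could be tested for 7 of the 8 genes, since the tables do not share an Ace row. Of these 7, 0 were called on rescaled FPKM, where 1.64% of 13392 genes were (0.874% higher and 0.769% lower), 1 was above 0 (50.9% of all genes), and 2 had an unadjusted p under 0.05 (15.9% of all genes). These were Enpep, with the change under cyclosporine A lower than that under tacrolimus by 0.63 (difference −0.63, SE 0.19, adjusted p = 0.105), and Mme (difference −0.53, SE 0.21, adjusted p = 0.222). On deposited FPKM all 7 differences were called lower, with 74.9% of all genes (0.306% were called higher), and none was above 0 (3.89% of all genes). The intervals of the other differences were wide, for example −1.04 to 0.32 for Agt, −0.74 to 0.56 for Agtr1a and −0.36 to 0.51 for Nr3c2, so neither a like nor an unlike response of these genes was shown.

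Among the other genes of the pathway, counted from fixed lists, few were called. Beside the counts of the lists below stand the shares of all tested genes, which with cyclosporine A are 0.609% called and 16.2% with an unadjusted p under 0.05, and with tacrolimus 0.303% and 8.58%. Atp6ap2, an accessory protein of the vacuolar proton pump, was 36.4 ± 2.98 rescaled FPKM with saline (SD, n = 4) and 38.2 ± 6.98 with cyclosporine A, and 98.7 ± 4.45 FPKM with DMSO/PEG (SD, n = 6) and 97.6 ± 9.25 with tacrolimus. The type 2 receptor Agtr2 and the Mas receptor Mas1 were too low to be tested in either table. Of 23 other angiotensin and kinin peptidases (aminopeptidases, cathepsins, meprins, carboxypeptidases and the like), 0 of 19 were called with cyclosporine A (median change −0.27, 6 with an unadjusted p under 0.05) and 0 of 21 with tacrolimus (median 0.06, 1 with an unadjusted p under 0.05). Thimet oligopeptidase (Thop1), which degrades angiotensin I and bradykinin, was the 1 of 19 whose changes differed between the drugs. It was 4.51 ± 0.610 rescaled FPKM with saline (SD, n = 4) and 2.42 ± 0.731 with cyclosporine A, and 10.3 ± 0.823 FPKM with DMSO/PEG (SD, n = 6) and 10.8 ± 0.915 with tacrolimus. The difference of −0.77 (SE 0.18) had an adjusted p of 0.0498, at the edge of the threshold, and it lost the call in 17 of 25 other settings. Among the single libraries whose omission ended it, each saline library did, with adjusted p-values up to 0.153.

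Of 18 genes for the synthesis, binding and inactivation of corticosteroids (steroid-making enzymes, reductases, receptor chaperones and immunophilins), 12 were tested with cyclosporine A and 13 with tacrolimus, and limma called 0 in both, with 6 and 2 at an unadjusted p under 0.05. Hsd11b1, which regenerates corticosterone and so works against Hsd11b2, was 142 ± 11.8 rescaled FPKM with saline (SD, n = 4) and 89.6 ± 21.6 with cyclosporine A. Its groups did not overlap, as those of 6.06% of all genes in that direction and of 3 of the 12 tested from this list. The change of −0.69 did not pass (limma adjusted p = 0.0913). With DMSO/PEG it was 129 ± 5.10 FPKM (SD, n = 6) and with tacrolimus 138 ± 8.86. The glucocorticoid receptor Nr3c1 was 19.4 ± 0.658 FPKM with DMSO/PEG (SD, n = 6) and 19.4 ± 0.697 with tacrolimus, and 3.88 ± 0.310 and 3.43 ± 0.478 rescaled FPKM with saline and cyclosporine A (SD, n = 4 each).

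Of 23 targets of the mineralocorticoid receptor and of the sodium transport it controls, 3 fell with tacrolimus, where 0.284% of all genes did. The thiazide-sensitive cotransporter Slc12a3 was 102 ± 5.50 FPKM with DMSO/PEG (SD, n = 6) and 43.3 ± 9.31 with tacrolimus, a change of −1.24 (SE 0.12, limma adjusted p = 0.000159). Klhl3, a ubiquitin ligase adaptor of the WNK kinases, was 7.08 ± 0.823 and 3.39 ± 0.338 FPKM (change −0.88, limma adjusted p = 9.95e-05). Wnk1, a kinase upstream of the cotransporter, was 34.2 ± 2.80 and 19.1 ± 0.982 FPKM (change −0.81, limma adjusted p = 1.69e-05). The groups did not overlap for any of the 3, as those of 0.671% of all genes in that direction. Each of the 3 was called in all 20 other settings. All 3 are strongly expressed in the distal convoluted tubule, whose 6 markers include Slc12a3 and Klhl3. Summed, these markers ran from 291 to 366 FPKM with DMSO/PEG and from 51.1 to 78.7 with tacrolimus (exact 2-sided permutation p = 0.00216). Calb1, at 12.3 to 235 FPKM, carries much of that sum, and Pvalb was 0 in every library. All 5 markers tested were called lower and lay lower without overlap, as 0.284% and 0.671% of all genes did. The part of these markers in the changes of the 3 genes was not tested. The sodium channel subunit Scnn1a was 31.5 ± 3.57 and 24.7 ± 1.34 FPKM and did not pass (change −0.33, limma adjusted p = 0.106).

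With cyclosporine A 0 of the same 23 were called by limma (0.609% of all genes), 6 had an unadjusted p under 0.05 (16.2% of all genes), and 18 changes were above 0 (50.1% of all genes) with a median of 0.24. Principal cell markers, among them Scnn1b and Scnn1g, had a median change of 0.29, with 0 of 6 called. Of these 6, 2 lay higher without overlap, as 4.85% of all genes did. Intercalated cell markers, among them Slc26a4, had a median change of 0.24, with 0 of 5 called. The part of either cell type in this shift was not tested. On deposited FPKM none of the 23 was above 0 (2.46% of all genes) and 16 were called lower (80.9% of all genes), with a median of −0.89 equal to that of all genes. Sgk1, the aldosterone-induced kinase, was 9.59 ± 0.649 rescaled FPKM with saline (SD, n = 4) and 17.9 ± 7.44 with cyclosporine A (change 0.75, limma adjusted p = 0.181). The channel subunit Scnn1g was 5.56 ± 0.823 and 7.66 ± 0.938 without overlap (change 0.40, limma adjusted p = 0.180). Of the 23, 2 lay higher and 1 lower without overlap on rescaled FPKM, as 4.85% and 6.06% of all genes did. The difference between the drugs was called for Klhl3 (1.12, SE 0.22, adjusted p = 0.029) and Wnk1 (0.82, SE 0.14, adjusted p = 0.0163). Leaving out saline replicate 1, 3 or 4 ended both calls, with adjusted p-values up to 0.101 for Klhl3 and 0.0655 for Wnk1. The Klhl3 call was lost in 5 of 25 other settings in all. On deposited FPKM the difference turned to −0.34 for Wnk1 and was 0.50 for Klhl3.

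Of 26 genes of the granular cells of the afferent arteriole and of their control, 1 of 21 rose with cyclosporine A (0.327% of all genes did) and 1 of 27 tested identifiers fell with tacrolimus (0.284% of all genes did). Aldh1a1, a retinaldehyde dehydrogenase, was 45.8 ± 3.46 rescaled FPKM with saline (SD, n = 4) and 72.0 ± 6.02 with cyclosporine A without overlap, as 4.85% of all genes were in that direction (change 0.64, SE 0.10, limma adjusted p = 0.0315). On deposited FPKM its change was −0.67 and it was called lower (limma adjusted p = 0.0408), as 80.9% of all genes were. On that scale 0.193% of all genes were called higher and 0.119% lay higher without overlap. Leaving out any 1 library other than cyclosporine A replicate 2 or 4 ended the call on rescaled FPKM, with limma adjusted p-values up to 0.121, as did testing with no filter (0.0539) and with the replicate block (0.0969). Ptger4, a prostaglandin receptor, was 5.76 ± 0.686 FPKM with DMSO/PEG (SD, n = 6) and 3.86 ± 0.451 with tacrolimus (change −0.48, SE 0.09, limma adjusted p = 0.0379). Its groups did not overlap, as those of 0.671% of all genes in that direction. Leaving out any 1 library other than DMSO/PEG replicate 3 ended the call, with limma adjusted p-values up to 0.103, as did scaling to the nuclear total (0.0869), no filter (0.0635) and voom (0.0514). Nos1 and Ptgs2, enzymes of the macula densa, did not pass with either drug. Of 22 genes of angiotensin receptor signalling (G proteins, phospholipases, arrestins and regulators of G protein signalling among them), limma called 0 of 21 with either drug, with 4 and 1 at an unadjusted p under 0.05. In the kallikrein and kinin list limma called 0 of 4 and 0 of 6, with 1 and 2 at an unadjusted p under 0.05. Tissue kallikrein (Klk1) was 146 ± 30.1 rescaled FPKM with saline (SD, n = 4) and 323 ± 164 with cyclosporine A (limma adjusted p = 0.244), and 204 ± 33.9 FPKM with DMSO/PEG (SD, n = 6) and 292 ± 47.2 with tacrolimus (limma adjusted p = 0.147). The kallikreins are a family of near-identical genes, so its counts are uncertain.

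The genes whose library-to-library pattern was most like each of the 8 were ranked by Pearson's r of log2(FPKM + 1) over the 12 libraries of the tacrolimus table, with group means removed, among 12887 other genes. For Enpep the highest were Fez2 (r = 0.96), Txndc11 (0.95) and Pex13 (0.94), with r of 0.57, 0.96 and 0.42 over the 8 libraries of the cyclosporine A table. For Agt they were Slc19a1 (0.95), Pgap4 (0.94) and Abhd14a (0.92), with r of 0.72, −0.67 and 0.80 in the other table. For Agtr1a they were Iyd (0.92), Slc6a18 (0.85) and Prepl (0.84), all with r below 0 in the other table. For Nr3c2 they were Atp7a (0.96), Abi2 (0.96) and Klf6 (0.95), with r of 0.62, −0.06 and 0.37 in the other table. For Hsd11b2 they were Fam222b (0.97), Cxxc5 (0.95) and As3mt (0.95), with r of 0.69, −0.21 and 0.52 there. For Mme they were Kpna3 (0.96), Dhx33 (0.93) and Eif4enif1 (0.91), with r of −0.23, 0.46 and −0.65 there. For Agtr1b they were the small RNA 7SK (0.97), Ints8 (0.95) and an unnamed gene model (0.93), with r of 0.06, 0.19 and −0.11 there. For Ace they were, after an unnamed gene model, Cd33 (0.92) and Nkg7 (0.91). The points share libraries and scaling, and each r is the top of a ranking, so it is a description.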

How the data were processed

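The authors deposited 1 table per drug with its vehicle, whose values are FPKM per gene. HISAT2 and the build rn6 are named in the submitters' processing notes. The counting program, annotation release and strand setting are not given in the sources used here. Whole fragments were recovered from the FPKM steps with a tolerance of 0.01. With the listed length, 100% of values came out whole in the tacrolimus table and 74.5% in the cyclosporine A table, where 4441 of 18892 detected genes needed a shorter length and 10 had no whole solution. The deposited values of the cyclosporine A table were divided by median-of-ratios size factors over nuclear genes. Those of the tacrolimus table already follow such factors.

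Genes entered the test when the number of libraries with 10 or more fragments, taken at median depth, was no lower than the size of the smaller group, and when fragments summed to 15 or more. Group was the single term in limma 3.58.1 (R 4.3.3) with an empirical Bayes trend on log2(FPKM + 1), Benjamini-Hochberg adjusted over all tested genes. The difference between the drugs used each change's standard error with Satterthwaite degrees of freedom. The procedure was tested on simulated data. Library measures were compared by exact 2-sided permutation tests, adjusted p being 0.086 or more in the cyclosporine A table over its 15 measures. Genes named are all 8, the list genes called in any comparison, a few expected first by a reader of the pathway and the 3 most alike genes of each. Some items of the pathway are not reported here. Genes and lists were chosen with earlier results of these data known. The labels give replicate numbers but do not say which animal a library is from, so p-values measure the spread between these libraries. The number of value columns with no sample was 0. Of the cyclosporine A table, values rest on 2905839 to 17256748 nuclear fragments per library, so its low genes are imprecise.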

Additional observations from a re-analysis of the deposited data

Results flagged for a closer look

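Among the 8 genes, 32 sets of libraries (a gene in a group) were checked for a library far from the rest of its group, and chance flags about 1 in 20. The 6 found were Agtr1b in cyclosporine A replicate 2 (0.0680 rescaled FPKM, the others at 0), Agtr1b in tacrolimus replicate 5 (2.50 FPKM, the others 1.55 to 1.87), Enpep in cyclosporine A replicate 4 (9.497 rescaled FPKM, the others 14.9 to 15.9), Mme in DMSO/PEG replicate 3 (78.6 FPKM, the others 109 to 123), Nr3c2 in tacrolimus replicate 6 (3.91 FPKM, the others 5.57 to 6.52) and Hsd11b2 in tacrolimus replicate 6 (186 FPKM, the others 142 to 158). The first flag is fixed by the 0 values of the other libraries in its group, so nothing is read from it. Of the 6, 2 are in tacrolimus replicate 6, and DMSO/PEG replicate 3 and tacrolimus replicate 6 have the lowest Nr3c2 for their Hsd11b2. Without both, a setting chosen after seeing the data, no gene of the 8 was called and 52 genes in all were.

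By the test of the difference itself, called for 1.64% of 13392 genes, 4 list genes were called. Of the lists they come from, this is 1 of 19 peptidases, 2 of 23 mineralocorticoid targets and 1 of 21 genes of the granular cells and of their control. The change with cyclosporine A minus that with tacrolimus was −0.77 for Thop1 (adjusted p = 0.0498), 1.12 for Klhl3 (adjusted p = 0.029), 0.82 for Wnk1 (adjusted p = 0.0163) and 0.73 for Aldh1a1 (adjusted p = 0.00834). Leaving out a single library ended the calls of Thop1 (adjusted p up to 0.153), Klhl3 (up to 0.101) and Wnk1 (up to 0.0655), among them saline replicates 1, 3 and 4 for each, and not that of Aldh1a1 (up to 0.0459). Drug, vehicle and table cannot be told apart in these differences.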

How the results depend on the processing

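Scaling decided the cyclosporine A result. With the FPKM as deposited 10911 genes were called (26 higher, 10885 lower) against 82 rescaled (44 and 38), and 10068 against 220 for the difference between the drugs, since each library then carries its mitochondrial share. On that scale the change of Nr3c2 was −0.36, of Hsd11b2 −1.14 and of Aldh1a1 −0.67, and the difference was −0.52 for Nr3c2, −0.34 for Wnk1 and −0.58 for Aldh1a1. For cyclosporine A 1 gene was called with no filter on low values, 149 with array quality weights, 270 with voom and between 1 and 139 when a library was left out (15, 28, 3 and 1 without saline replicates 1 to 4, and 26, 18 and 139 without cyclosporine A replicates 1, 3 and 4). Scaled to the nuclear total, 114 were called, 72 higher and 42 lower. For tacrolimus 77 were called with array quality weights and 36 to 49 with a library left out. For the difference 129 were called with no filter and 27 to 274 with a library left out (44, 74, 79 and 27 without saline replicates 1 to 4, and 95 without cyclosporine A replicate 1). The cause was not tested where none is named. The 8 genes were not called in any setting but the deposited scale.

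Small changes also took the other sign. With a library left out, Agtr1a under cyclosporine A ran from −0.393 to 0.0625, including 0.0513, and its difference between the drugs from −0.379 to 0.0766, including 0.0654. Ace under tacrolimus ran from −0.108 to 0.145, including −0.0854, −0.0250, −0.00460 and −0.00266, with −0.0354 under array quality weights and −0.109 without DMSO/PEG replicate 3 and tacrolimus replicate 6, a setting chosen after seeing the data. Agtr1a under tacrolimus ran from −0.0691 to 0.0369, including 0.0101 and 0.0237. Agtr1b under tacrolimus ran from −0.0397 to 0.104, including −0.00647, with −0.0167 under array quality weights and −0.0413 without those 2 libraries. The difference ran from −0.0123 to 0.185 for Nr3c2, including −0.0111 and −0.00426, and from −0.124 to 0.0536 for Hsd11b2, including 0.0378, 0.0266, 0.0176, 0.00826, 0.00610 and 0.000621.

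Replicate numbers were not taken to pair the libraries. Same-numbered libraries had correlations of −0.149 to 0.212 for cyclosporine A and saline and −0.151 to 0.182 for tacrolimus and DMSO/PEG, and not every library correlated best with its own number. With the replicate block 6, 44 and 184 genes were called in the 3 comparisons. Depth limits low genes most in the cyclosporine A libraries, the shallowest of which has 2905839 nuclear fragments.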
